A study of Mus musculus with 12 samples.

Results

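The H3K27ac mark was followed at 9 genes of the NRF2 antioxidant response in 4T1 cells: Nfe2l2, Keap1, Hmox1, Nqo1, Gclc, Gclm, Txnrd1, Slc7a11 and Srxn1. They were chosen by name, as every interval of the deposited table whose nearest gene was given as 1 of these symbols. That rule took 42 of 126464 intervals and 9 of 22264 gene symbols, and it uses no measured value, though the genes were proposed with earlier results of these data known. H3K27ac, acetylation of lysine 27 of histone H3, marks active promoters and enhancers. It was measured by chromatin immunoprecipitation and sequencing (ChIP-seq) in 12 libraries of 4T1, a mouse mammary carcinoma line labelled wild type and grown in DMEM with serum.

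All cells were treated for 48 h. Acetate was used at 5 mM, etomoxir at 50 µM and SB204990 at 50 µM, also where they were combined. The 6 treatments were a vehicle control, acetate alone, etomoxir alone, both of these, etomoxir with SB204990, and all 3 agents, with combined agents joined below by a plus sign. Cells can turn acetate into acetyl-CoA, from which histones are acetylated. Etomoxir blocks CPT1, which admits long-chain fatty acids to mitochondria, and SB204990 blocks ATP citrate lyase, which makes acetyl-CoA from citrate. No treatment held SB204990 without etomoxir. Each treatment had 2 libraries, named set 1 and set 2 here after a suffix in their titles. The meaning of the suffix is not given, and nothing says that the libraries came from separate cultures, so p-values measure only the spread between these libraries, which may be technical. A value is the number of reads in an interval multiplied by the spike-in factor of its library, and a gene's value is the sum over its intervals. Reads in all intervals numbered 7179165 to 16676442 per library and the factors ran from 0.398 to 1. Each set had its own library with a factor of 1, so values within a set are given beside pooled ones. In a culture measured in bulk, more acetylated nucleosomes per cell and more cells carrying the mark cannot be told apart.

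NRF2, encoded by Nfe2l2, is a transcription factor that turns on genes for glutathione synthesis, thioredoxin recycling, quinone reduction and haem breakdown. In unstressed cells KEAP1 holds it and hands it to a ubiquitin ligase for degradation. Oxidants and electrophiles modify KEAP1, and NRF2 then accumulates, pairs with small MAF proteins and binds antioxidant response elements (AREs). Many tumours use this programme to withstand oxidative stress.

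The core of the ARE was searched as TGACNNNGC on both strands of the mm10 sequence under the intervals, together with the AP-1 site TGANTCA. The capitals below mark the match, which is flanked by 10 bases on each side, and each sequence runs 5′ to 3′ on the strand of the match. The first 5 are the only matches in the 42 intervals that also overlapped an AP-1 match, and they are shown because all of them lay upstream of a member's start. The rest are, for the other 7 genes, the match nearest to the start.
Hmox1, chr8:75083996-75084024, minus strand: acgggaaccaTGACTCAGCgaaaacagac
Hmox1, chr8:75083967-75083995, minus strand: ctcgggaccgTGACTCAGCgtcacacagc
Hmox1, chr8:75083939-75083967, minus strand: ccccggacctTGACTCAGCagaaaaggca
Hmox1, chr8:75089740-75089768, minus strand: gaacagagggTGACTCAGCaaaatctgtc
Gclc, chr9:77750735-77750763, minus strand: cgcctcaccgTGACTCAGCactctgcgcg
Nfe2l2, chr2:75704885-75704913, minus strand: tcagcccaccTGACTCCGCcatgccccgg
Keap1, chr9:21238830-21238858, plus strand: cgggtcacggTGACTAAGCacagcgcgcc
Nqo1, chr8:107404730-107404758, plus strand: ggatgctgtgTGACCAGGCagcttcgtct
Gclm, chr3:122245642-122245670, minus strand: tggaagacaaTGACTAAGCagaaacctca
Txnrd1, chr10:82859104-82859132, minus strand: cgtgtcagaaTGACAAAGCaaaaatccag
Slc7a11, chr3:50443253-50443281, minus strand: tcctctggtgTGACACTGCcatggtcaga
Srxn1, chr2:152105542-152105570, minus strand: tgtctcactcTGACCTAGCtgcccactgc

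The first 3 Hmox1 matches stood side by side, at -9.611 to -9.668 kb from the start of the gene, in a separate upstream interval. The fourth lay at -3.867 kb. The Gclc match lay at -3.786 kb, also in a separate upstream interval. For Srxn1, Txnrd1 and Gclm the nearest match lay within 99 bp of the start, whereas for Nqo1 it lay at -1538 bp. Over the 42 intervals there were 71 matches to the ARE core, 0.497 per kb, against 0.388 per kb over 126359 intervals on chromosomes, and 38.1% of the 42 held a match against 34.9%. The AP-1 site was less dense in the members, with 0.273 matches per kb against 0.373, though 40.5% of the 42 intervals held a match against 33.6%. The upstream Hmox1 interval held 5 ARE matches, where intervals of like length (0.8 to 1.2 times) held a mean of 1.28. The start interval of Slc7a11 held 13 against a mean of 5.05. Those of Nfe2l2 (10 vs. 11.7) and Keap1 (4 vs. 4.43) held fewer than the mean at their lengths, and that of Gclc held 0 against 2.11. In the promoter windows of RefSeq (GRCm38, 250 bases before to 50 after a start), 7 of the 9 genes were matched with 9 windows. The ARE core was found in 4 of these 9, those of Gclm, Nfe2l2, Srxn1 and Txnrd1, against 12.4% of all 32851 windows. Only TGACNNNGC was searched as the ARE core, so elements written with other letters were not counted. A match is a description of letters and not a binding site.

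The intervals differed in build between the genes. Each gene had 1 interval over its start, and these 9 start intervals held 85.8% of the signal of the 42. Nfe2l2 was marked as 1 run of 30194 bp (chr2:75676955-75707148), longer than the 99th percentile of all intervals (23455.5 bp), with a mean value of 1090.1 over the 12 libraries. That mean was above 89.8% of the 19458 tested genes. Keap1 had 99.3% of its mean of 738 in a start interval of 11839 bp (chr9:21229394-21241232). Txnrd1, which encodes cytosolic thioredoxin reductase, had 1 interval of 16121 bp (chr10:82854049-82870169) and a mean of 933. These 3 had the highest sums of the 9.

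The remaining genes had means of 288 to 655, against a median of 213 over all tested genes. Gclm, which encodes the regulatory subunit of glutamate-cysteine ligase, was compact, with 98.2% of its mean of 288 in 4916 bp (chr3:122244022-122248937). Gclc, the catalytic subunit of the same enzyme, was split over 10 intervals, and its start interval (chr9:77753894-77759790) held 42.2% of a mean of 453. A further 38.3% was in the upstream interval with the AP-1 overlapping match (chr9:77748809-77751993), which at 54.4 per kb was denser than the start interval at 32.4 per kb. Nqo1, which reduces quinones, was spread over 11 intervals, with 49.1% in its start interval (chr8:107401015-107405590). Hmox1, which encodes the inducible haem oxygenase, had 74.7% of its mean of 413 in its start interval (chr8:75086896-75100874), and its upstream interval (chr8:75082883-75086302) had a mean of 74.6. Slc7a11, the cystine importer, had 77.1% of 655 in its start interval (chr3:50432004-50445555). Srxn1, which encodes sulfiredoxin, had 90.3% of 296 in its own (chr2:152101960-152108392).

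**Figure D1:**
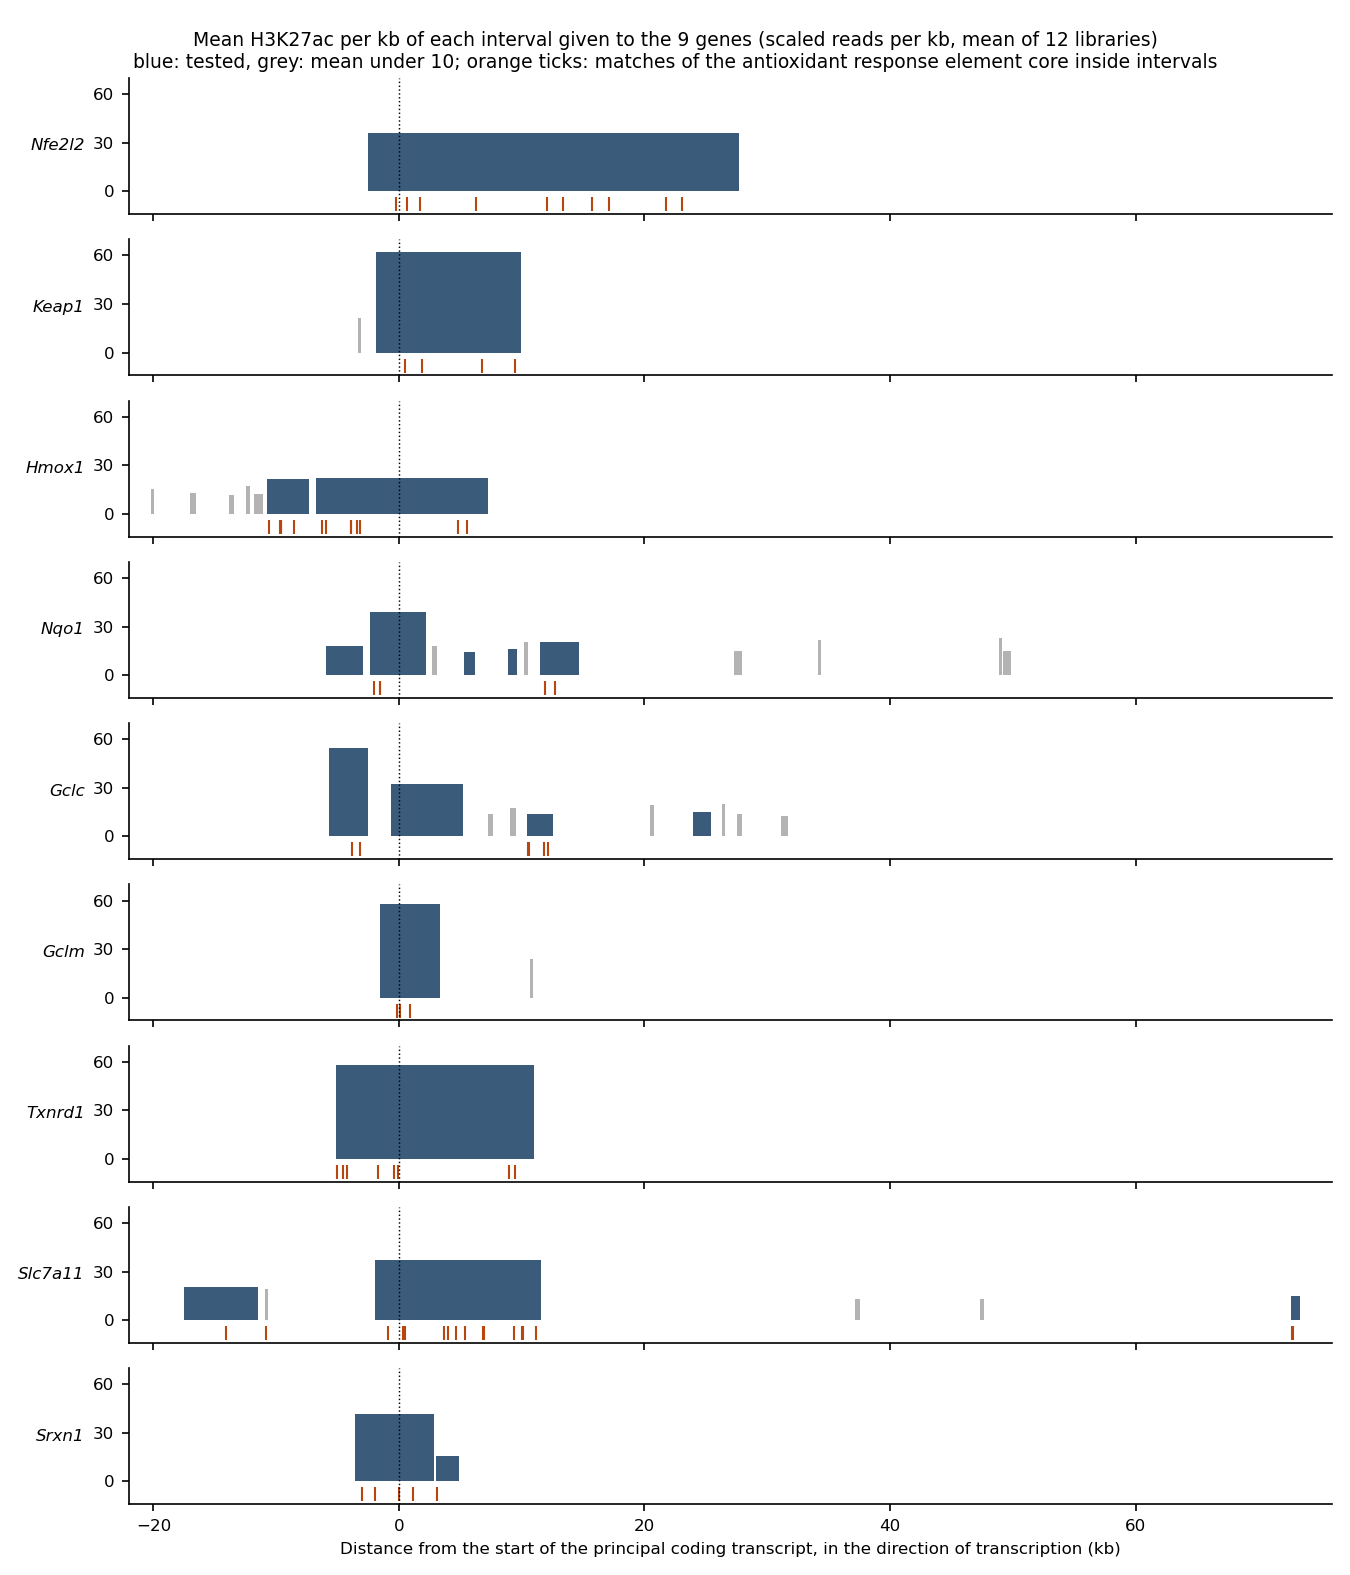
H3K27ac intervals of the 9 genes by distance from the start of the gene's principal coding transcript (kb, horizontal) and mean spike-scaled value per kb over 12 libraries (vertical), with tested intervals in blue, intervals with a mean under 10 in grey and ARE core matches as orange ticks. Nfe2l2 and Txnrd1 are single long blocks, and Gclc has an upstream block that is denser than its start block.

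On the per-length scale the order was different. Keap1 (61.2 per kb), Txnrd1 (57.9) and Gclm (56.1) were the densest, each above at least 96.3% of tested genes, whose median was 23.0 per kb. Hmox1 was the least dense at 21.0 per kb and the only member under that median. The nearest-gene rule also gave intervals inside 4 of the genes to other symbols. In the body of Txnrd1, 6 intervals with a summed mean of 450.1 were assigned to Eid3, which equals 48.2% of the sum of Txnrd1. In the body of Slc7a11, annotated over the long span chr3:49892526-50443614, 7 intervals with a summed mean of 316 were assigned to Gm37854. These do not enter the values given here.

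The cells' label was checked against markers. Of 8 epithelial markers, 6 had an interval, with means from 659 for Esrp1 to 4048 for Krt8, and Krt18 and Krt7 had none. Among 9 markers of other cell types, Alb and Myod1 had none, and Cd3e (15.5), Neurod1 (53.8) and Ptprc (61.1) were low. Adipoq (113) and Cdh5 (127) were also under the median of 213 over all tested genes, whereas Cd68 (2316) and Pecam1 (733) were above it. These sums follow the nearest gene, and the part of other cells in the results was not tested. Etomoxir + SB204990 set 2 was the shallowest library and stood apart in its make-up. Its intervals with a mean under 10 held 3.47% of the members' signal against 1.91 to 3.08% in the other 11 libraries.

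For Nfe2l2 the values in set 1 and set 2 were 745 and 841 in vehicle, 1245 and 1160.4 in acetate, 985 and 951 in etomoxir, 1687 and 1519.7 in etomoxir + acetate, 689 and 759 in etomoxir + SB204990, and 1078 and 1421 in etomoxir + SB204990 + acetate. All 6 libraries with acetate were above all 6 without. For Keap1 they were 605 and 574 in vehicle, 837 and 803 in acetate, 682 and 672 in etomoxir, 1089 and 1005 in etomoxir + acetate, 482 and 524 in etomoxir + SB204990, and 687 and 901 in etomoxir + SB204990 + acetate. The lowest acetate library of Keap1 was above the highest library without acetate by only a few units (687 vs. 682).

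Among the glutathione genes, Slc7a11 had 484 and 528 in vehicle, 733 and 631 in acetate, 589 and 602 in etomoxir, 978 and 933 in etomoxir + acetate, 440.5 and 498 in etomoxir + SB204990, and 650.0 and 789 in etomoxir + SB204990 + acetate. Gclc had 339 and 359, 479 and 456, 429.8 and 422, 667 and 609.6, 304 and 374, and 431 and 565 in the same order. In both genes the acetate libraries did not overlap the others, though for Gclc the gap was 429.8 to 431. Gclm had 231 and 236 in vehicle, 321 and 276 in acetate, 283 and 262 in etomoxir, 388 and 411 in etomoxir + acetate, 195 and 187 in etomoxir + SB204990, and 269.7 and 397 in etomoxir + SB204990 + acetate. Its groups overlapped, with 4 of 6 acetate libraries above every library without acetate.

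In the thioredoxin arm, Txnrd1 had 739 and 732 in vehicle, 1068 and 942 in acetate, 805 and 801 in etomoxir, 1368 and 1285 in etomoxir + acetate, 621 and 619 in etomoxir + SB204990, and 1009.6 and 1208 in etomoxir + SB204990 + acetate. In each treatment without acetate its 2 libraries were closer, relative to their level, than those of any other member. Srxn1 had 217 and 257, 301 and 287, 251 and 275, 443 and 409.9, 204 and 226, and 287 and 396 in that order of treatments. The acetate libraries of both genes lay above the rest.

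Of the haem and quinone enzymes, Nqo1 had 232 and 286 in vehicle, 361 and 389 in acetate, 342 and 303 in etomoxir, 566 and 549 in etomoxir + acetate, 215 and 316 in etomoxir + SB204990, and 362 and 455 in etomoxir + SB204990 + acetate. Hmox1 had 254 and 376 in vehicle, 372 and 451 in acetate, 350.3 and 316 in etomoxir, 660 and 635 in etomoxir + acetate, 223 and 357 in etomoxir + SB204990, and 407 and 548 in etomoxir + SB204990 + acetate. Hmox1 had the widest range of the 9, its highest library being 2.95 times its lowest, and 5 of its 6 acetate libraries exceeded every library without acetate. In vehicle and in etomoxir + SB204990 the set 2 library was well above that of set 1 (376 vs. 254 and 357 vs. 223).

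Across the 9 genes, the mean of etomoxir + acetate was the highest in all 9, for example 1603 ± 118 (SD, n = 2) for Nfe2l2 against 793 ± 67.6 in vehicle. The mean of etomoxir + SB204990 was the lowest in 8, and for Nqo1 vehicle (259 ± 38.3) and etomoxir + SB204990 (266 ± 71.1) did not differ beyond their spread. The acetate libraries did not overlap the others in 7 of 9 genes, and this held for 39.3% of all tested genes.

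**Figure D2:**
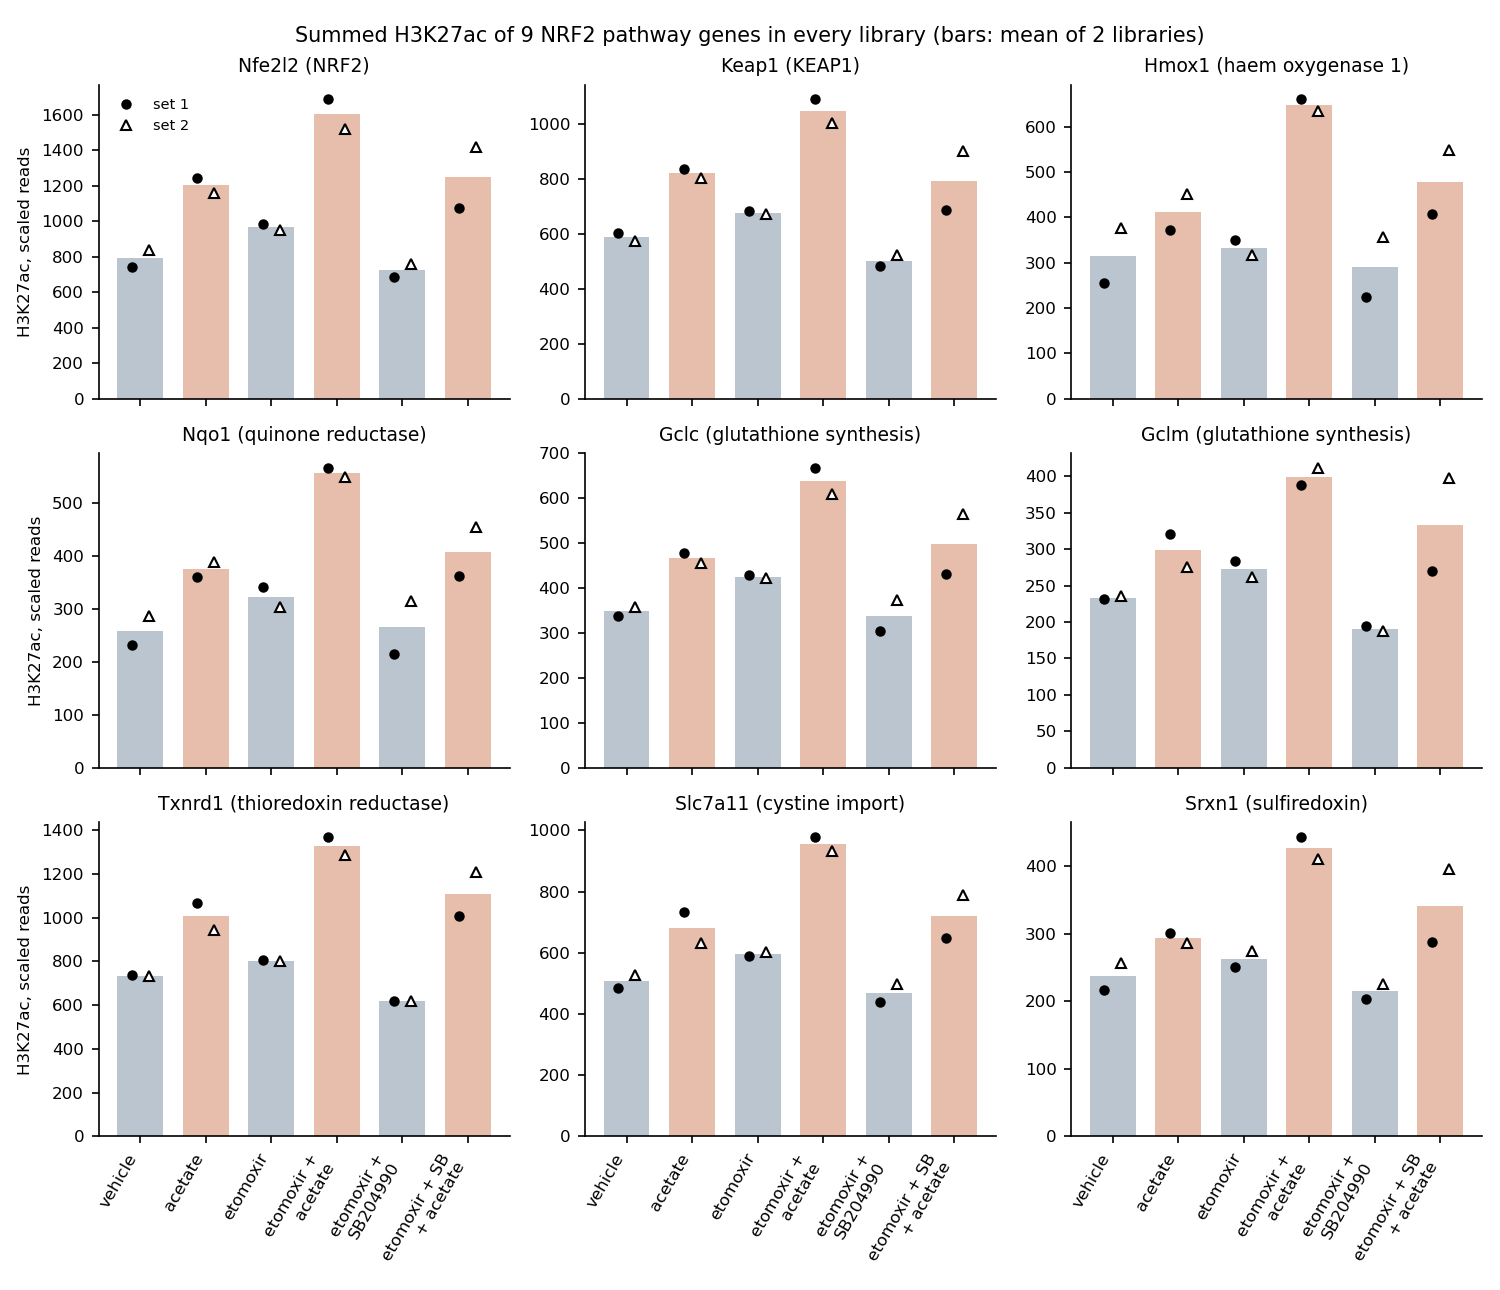
Spike-scaled H3K27ac value of each of the 9 genes (vertical axis, summed over intervals) in the 12 libraries, by treatment (horizontal axis). Points are set 1 and set 2, and the bar is the mean of the 2 (orange with acetate, blue without). Values are highest in etomoxir + acetate for all 9 genes, and the 2 libraries of etomoxir + SB204990 + acetate lie apart (1078 and 1421 for Nfe2l2).

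Acetate was compared with its absence at each background and as the average of the 3 contrasts. By that average all 9 genes rose, by 1.43-fold for Gclc to 1.63-fold for Nfe2l2, and so did most of the genome: 88.2% of tested genes were called higher. Changes here are differences of mean log2(value + 1) from limma across all tested genes, with a call wherever the p adjusted by Benjamini-Hochberg was under 0.05. Nfe2l2 rose by 0.70 ± 0.10 (SE; limma adjusted p = 1.55e-05) and Gclm, the weakest call, by 0.56 ± 0.13 (limma adjusted p = 0.00033). The members' median was 0.58 and that of all tested genes 0.63, and 4 of 9 members were above the latter, with departures from it of -0.11 for Gclc to 0.07 for Nfe2l2. After median-of-ratios scaling, which takes off the shift shared by most genes, Keap1, Gclc, Gclm, Slc7a11 and Srxn1 had negative acetate differences, no member was called, and 0.0719% of all genes were. Factors applied to each library's share of reads, which takes depth out of the values, gave a members' median of 0.38 against 0.43, with 0 of 9 and 0 of all genes called by limma (611 genes and no member unadjusted). On the deposited scale the average was 0.46 (Gclm) to 0.77 (Hmox1) in set 1 and 0.49 (Gclc) to 0.68 (Nfe2l2) in set 2. Each member was higher with acetate in all 6 pairs of libraries of the same set, as were 84.2% of tested genes.

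Acetate alone did not pass the test against vehicle. The differences were 0.31 for Srxn1 to 0.60 for Nfe2l2 and all positive, with a median of 0.43 against 0.48 over all genes. On median-of-ratios scaling they ran from -0.17 to 0.12, and only Nfe2l2 and Nqo1 were above 0. On the deposited scale Srxn1 was 0.19 without vehicle set 1 and 0.43 without vehicle set 2, and Hmox1 0.12 and 0.69. By limma 0 members and 0% of all genes were called, with 6 members and 8341 genes at an unadjusted p under 0.05, and the adjusted p ran from 0.101 to 0.219. edgeR on recovered reads also called 0 members, with 6 at an unadjusted p under 0.05. A fit of only these 4 libraries called 7 of 9, among 11973 of 19458 genes called higher. With the set as a replicate block Nfe2l2 was the only member called, though the set numbers were not taken as pairs.

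On top of etomoxir, acetate raised all 9 genes, where 78.2% of all genes were called higher, while on median-of-ratios scaling only Hmox1 and Nqo1 were above 0. Hmox1 had the highest difference of the 9, 0.96 ± 0.24 or 1.94-fold (limma adjusted p = 0.0030), and it was the highest member in both sets (0.91 and 1.00). Gclm had the lowest, 0.55 ± 0.22 (limma adjusted p = 0.027). The median of the 9 was 0.70 against 0.79 over all genes, and only Hmox1 and Nqo1 (0.79) were above the median of all genes. Without etomoxir + acetate set 1 or etomoxir set 2, 4 and 5 of the 9 were called, among 5603 and 7368 of all genes.

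On top of etomoxir + SB204990, acetate again raised all 9, where 57.7% of all genes were called higher, while on median-of-ratios scaling Nqo1, Gclc and Slc7a11 were below 0. Txnrd1 had the highest difference (0.83 ± 0.18, limma adjusted p = 0.0065) and Gclc the lowest (0.55 ± 0.20, limma adjusted p = 0.024). The members' median was 0.65 and that of all genes 0.64. The sets differed: Gclm rose by 0.47 in set 1 and 1.08 in set 2. Without etomoxir + SB204990 + acetate set 1 and set 2 in turn, Gclc was 0.74 and 0.35 and Txnrd1 0.96 and 0.70. Without etomoxir + SB204990 + acetate set 2, or in a fit of only these 4 libraries, 0 of the 9 and 0 of all genes were called. Without etomoxir + SB204990 set 1, 5 were, among 3712 genes called higher.

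The effect of acetate was not shown to depend on the background. The interaction of acetate with etomoxir was positive in all 9 members, from 0.12 for Nfe2l2 to 0.55 ± 0.34 for Hmox1, beside a median of 0.30 over all genes. By limma 0 members and 0% of all genes were called, with 0 members and 31 genes at an unadjusted p under 0.05, and edgeR called 0 genes with 38 unadjusted. The adjusted p of the members was 0.774 to 0.815. The interaction of acetate with etomoxir + SB204990 was 0.10 for Nqo1 to 0.43 for Gclm, with 0% of all genes called by limma or edgeR and 11 and 97 at an unadjusted p under 0.05.

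**Figure D3:**
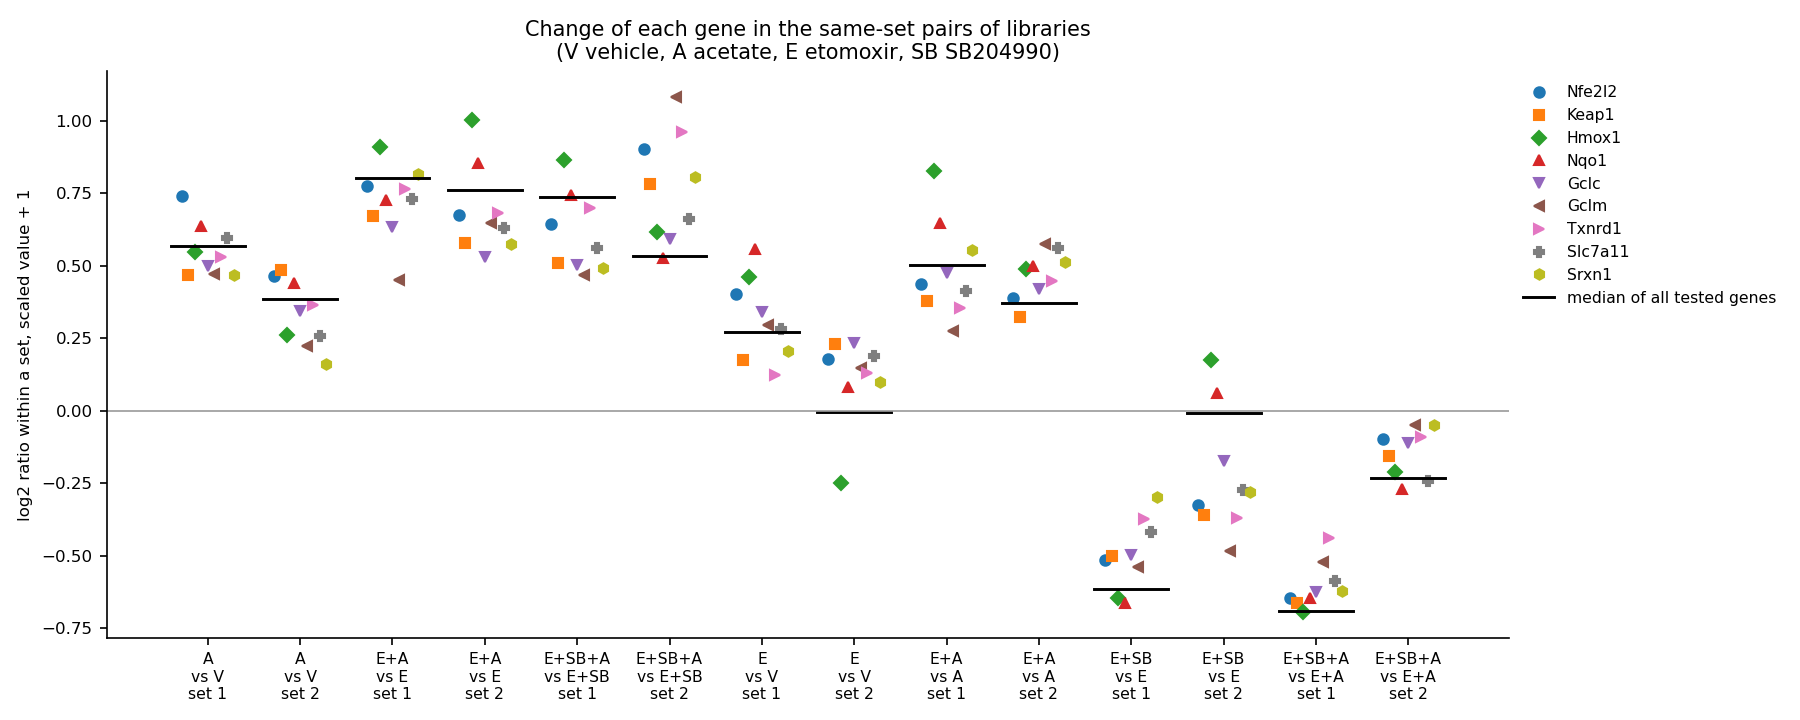
Log2 fold change of each of the 9 genes (points) between libraries of the same set, for 7 pairs of treatments in each set (14 pairs), with a bar at the median of all tested genes. On the deposited scale every member lies above 0 in the 6 acetate pairs, and in 5 of these 6 the members' median is below that of all tested genes.

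Etomoxir was compared with its absence without and with acetate. No member passed the test. The average differences were all positive, from 0.26 for Txnrd1 to 0.45 for Nqo1, with a median of 0.35 against 0.29 over all genes and 7 of 9 above the latter, but on median-of-ratios scaling Keap1 and Txnrd1 were below 0. By limma 0 of 9 and 0.298% of all genes were called, while all 9, and 5342 of 19458 genes, had an unadjusted p under 0.05 (adjusted p = 0.181), and edgeR gave 0 and 9. A fit of only the 8 libraries of this contrast called all 9, among 11787 genes called higher. Against vehicle, etomoxir alone gave 0.10 (Hmox1) to 0.32 (Nqo1), with limma adjusted p = 0.990 and 0.0154% of all genes called. Without vehicle set 1 and set 2 in turn Nqo1 was 0.17 and 0.47. Hmox1 changed direction between the sets, at 0.46 in set 1 and -0.25 in set 2.

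Nqo1 was the member farthest from the rest of the genome under etomoxir. Its average difference exceeded that of the median gene by 0.16, and it was above the median gene in 4 of 4 same-set pairs, by 0.086 to 0.29. Of all tested genes, 87.7% had a lower average difference. With median-of-ratios scaling its unadjusted p was 0.015 and its adjusted p 0.477 (limma), where 0.324% of all genes were called. The departure is a value that did not pass the test over all genes.

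Adding SB204990 to etomoxir was compared without and with acetate. On average all 9 genes fell and 7 of them were called, where 45% of all tested genes were called lower. Keap1 had the lowest difference, at -0.42 ± 0.13 or 0.747-fold (limma adjusted p = 0.028), and Nfe2l2 fell by 0.40 on the log2 scale. Nqo1, Gclc, Gclm, Txnrd1 and Slc7a11 were also called, and Hmox1 (-0.34) and Srxn1 (-0.31) were not, both with a limma adjusted p of 0.085. The members' median was -0.38 and that of all genes -0.40, and 8 of 9 members were above the latter, by at most 0.087. After median-of-ratios scaling Hmox1, Nqo1, Gclc, Txnrd1, Slc7a11 and Srxn1 had positive differences, from 0.014 for Slc7a11 to 0.081 for Srxn1, and 0% of all genes and no member were called, with 1238 genes and no member at an unadjusted p under 0.05. The differences were -0.41 to -0.67 in set 1 and -0.02 to -0.27 in set 2. Without etomoxir set 1 or set 2, etomoxir + acetate set 1 or set 2, or etomoxir + SB204990 + acetate set 1, 0 members and 0 of all genes were called. Without etomoxir + SB204990 set 1 there were 3 members among 4013 genes called lower, and without its set 2 all 9 among 16566. Hmox1 was -0.18 and -0.51 in these fits, and Srxn1 ran from -0.20 to -0.43 without etomoxir + SB204990 + acetate set 1 or set 2. Without etomoxir + SB204990 + acetate set 1 and set 2 in turn, Keap1 was -0.32 and -0.52 and Gclm -0.26 and -0.54. The count of calls without that set 2 library is not given here. A fit of only the libraries of this contrast and a fit without the intensity trend each called 0 members.

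Against vehicle, etomoxir + SB204990 gave differences of -0.29 for Gclm to 0.02 for Nqo1, with a median of -0.13 against -0.18 over all genes. On median-of-ratios scaling Nfe2l2, Hmox1, Gclc, Slc7a11 and Srxn1 turned positive, and Keap1, Gclm and Txnrd1 did not. As single libraries were left out, Nqo1 ran from -0.26 to 0.29. No member was called by limma (adjusted p = 0.777 to 0.984), where 0.00514% of all genes were. All 9 were lower in set 1, and in set 2 Nqo1 and Gclc were higher. As these comparisons share vehicle and etomoxir libraries, their values stand side by side here and are not independent.

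**Figure D4:**
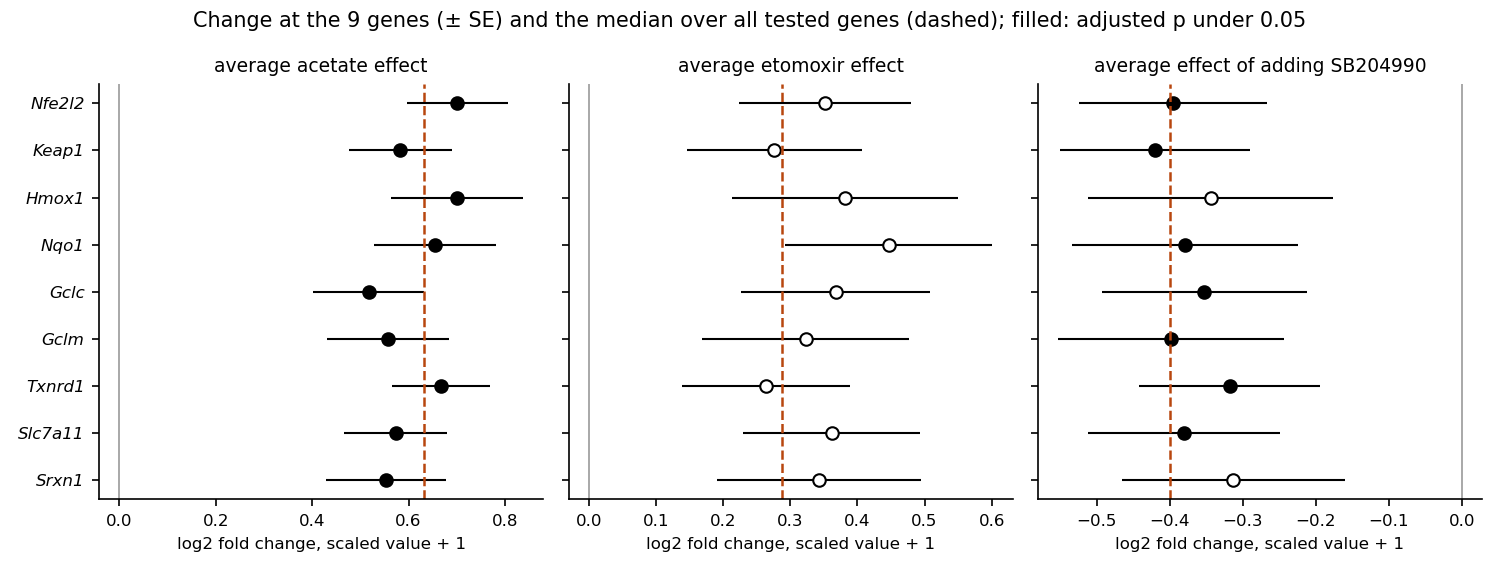
Log2 fold changes of the 9 genes (points with standard errors) for the average effects of acetate, etomoxir and adding SB204990, with filled points for calls at an adjusted p under 0.05 and a line at the median of all tested genes (0.63, 0.29 and -0.40). For acetate the members lie between 0.52 and 0.70 with 4 of 9 above the line, 7 of 9 are above it for etomoxir and 8 of 9 for adding SB204990, and after median-of-ratios scaling 5 members fall below 0 for acetate.

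The single intervals were tested as well. Of the 42, 20 passed the minimum mean of 10, and these held 97.4% of the members' signal. The other 22 had means of 3.37 to 9.97 and were at most 763 bp long. With acetate 19 of the 20 were called higher, where 77.2% of 63903 tested intervals were, and the median was 0.61 against 0.64. The exception was an interval of Gclc with a mean of 22.4 (0.49 ± 0.26, limma adjusted p = 0.072). For etomoxir 0 of 20 and 0.421% of all intervals were called by limma, with 9 of 20 and 13458 of 63903 unadjusted, and edgeR called 0 with 10 and 13882 unadjusted. Adding SB204990 gave 7 lower calls of 20, where 19.2% of all intervals were called lower, and they were in Nfe2l2, Keap1, Gclm, Hmox1, Gclc and Slc7a11, which had 2. Without 1 library these calls numbered 0 (etomoxir or etomoxir + acetate, either set, or etomoxir + SB204990 + acetate set 1), 2 (etomoxir + SB204990 set 1, with 4351 of all intervals) or 16 (its set 2, with 42920). The count without etomoxir + SB204990 + acetate set 2 is not given here. Without its set 1 and set 2 in turn, the start interval of Keap1 was -0.32 and -0.52 and that of Gclm -0.27 and -0.55. No filter, no intensity trend and a fit of only the libraries of the contrast each gave 0 calls.

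Values of the upstream intervals with the AP-1 overlapping matches enter the sums of their genes. The Hmox1 one had 38.8 and 68.1 in vehicle, 71.8 and 85.3 in acetate, 56.6 and 54.4 in etomoxir, 123 and 121 in etomoxir + acetate, 47.8 and 74.0 in etomoxir + SB204990, and 68.6 and 85.9 in etomoxir + SB204990 + acetate. Its average acetate difference was 0.69 ± 0.17, beside 0.64 for the median interval. The Gclc one had 128 and 133, 191 and 159, 159 and 173, 240.0 and 234, 125 and 130, and 182 and 227 in the same order, with an average acetate difference of 0.53 ± 0.13 beside 0.51 for the start interval. Both were called higher with acetate, and neither was called on adding SB204990 (-0.28 for Hmox1 and -0.30 for Gclc, with a limma adjusted p of 0.284 and 0.156), although the Gclc sum was.

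Of the 20 tested intervals, 4 departed from the median interval by more than 0.3 in an average. All 4 were weak, with means of 10.9 to 28.8, and they were singled out after their values were seen. The second Srxn1 interval (chr2:152108521-152110387) had 17.3 and 25.4 in vehicle, 22.3 and 33.6 in acetate, 21.1 and 14.3 in etomoxir, 48.0 and 66.2 in etomoxir + acetate, 10.4 and 22.0 in etomoxir + SB204990, and 34.3 and 31.2 in etomoxir + SB204990 + acetate. Its average acetate difference of 1.02 ± 0.24 exceeded the median interval's by 0.38, with an adjusted p of 0.624 after median-of-ratios scaling (limma). The Gclc interval that acetate did not pass in had -0.93 ± 0.32 for adding SB204990, 0.52 below the median interval, with an adjusted p of 0.998 on that scaling, and 0.63 ± 0.32 for etomoxir, 0.30 above. The last Slc7a11 interval had -0.07 ± 0.39 for etomoxir, 0.40 below the median interval, and -0.10 ± 0.39 for adding SB204990, 0.31 above it. A body interval of Nqo1 had -0.0090 ± 0.38 for adding SB204990, 0.40 above. None of these departures was called after median-of-ratios scaling.

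The other genes of the pathway were taken from 2 lists. Of 12 partners and regulators of NRF2, 11 had an interval, and Mafg had none. Acetate raised all 11 on average, where 88.2% of all genes were called higher, with a median of 0.66 against 0.63, and 7 of them were above the median gene. The farthest above the median gene by the naming rule was Bach2, a repressor that competes for MAF partners, at 0.77 ± 0.11. Of the 11, 8 were called lower on adding SB204990, where 45% of all tested genes were, with a median of -0.38 against -0.40. For etomoxir none was called by limma, where 0.298% of all genes were, at a median of 0.30 against 0.29. Mafk, a small MAF partner, had the lowest departure under etomoxir, 0.10 ± 0.13 or 0.19 below the median gene.

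Of 38 further genes commonly given as NRF2 targets, 35 had an interval, and Gss, Gpx4 and Gsta3 had none. Acetate raised all 35 on average, beside the same 88.2% of all genes, with a median of 0.65 and 18 above the median gene. With acetate 31 (88.6%) were called higher on top of etomoxir, where 78.2% of all genes were. The calls numbered 27 (77.1%) on top of etomoxir + SB204990, where 57.7% of all genes were called. Of the 35, 22 (62.9%) were called lower on adding SB204990, beside 45% of all genes, with a median of -0.38. The fall was called in 6 of 9 glutathione genes, 4 of 4 thioredoxin genes, 3 of 6 NADPH genes, 4 of 6 iron and haem genes and 5 of 10 detoxification genes, beside 45% of all genes, and no group was tested against that share. Etomoxir gave no call by limma and a median of 0.34. Ephx1, an epoxide hydrolase, had the highest acetate difference (0.91 ± 0.13, 0.28 above the median gene), and Gsr, glutathione reductase, had the lowest on adding SB204990 (-0.57 ± 0.13, limma adjusted p = 0.028). Mgst1 (-0.07 ± 0.25), Blvrb (-0.10 ± 0.28) and Gpx2 (-0.16 ± 0.15), a microsomal glutathione transferase, a biliverdin reductase and a glutathione peroxidase, were the nearest to 0 on adding SB204990 among the genes named by the rule, and none of them was called. For acetate the rule also named Gstm1 (0.80), Gpx2 (0.76), Abcc4 (0.75) and Abcc1 (0.70), and for etomoxir Cbr3 (0.52), Idh1 (0.43), Abcc4 (0.43), Fech (0.41) and Pir (0.08). After median-of-ratios scaling no gene of either list was called in any comparison.

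On median-of-ratios scaled log2 values, Pearson's r over the 12 libraries was above 0 in 26 of 36 pairs of members, with a median of 0.60. Gclc and Slc7a11 were the most alike (0.853) and Keap1 and Hmox1 the least (-0.683). All 10 pairs below 0 held Hmox1 or Nqo1, and the 21 pairs of the other 7 members ran from 0.561 to 0.853, a split made after the values were seen. No such value was computed for other pairs of genes. Of 15525 genes compared, Slco2a1 (0.987), Tmcc3 (0.980) and Odc1 (0.974) were the most like the members' mean profile. These points share libraries, depth and factors, and are a description.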

How the data were processed

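Per the labels and the study's methods, the authors added 7.5% human chromatin, immunoprecipitated H3K27ac, and processed paired-end reads with nf-core/chipseq on a merged GRCh38 and mm10 genome with broad peaks. The notes also name deepTools, whose tracks were not used here. Whether intervals were called per library or on pooled libraries is not stated. The deposited table holds a spike-scaled signal per interval, the read count multiplied by the library's factor. The authors derived the factors from the percentage of human reads and divided them by the highest, so an error in 1 factor moves every interval of a library together, and sequencing depth stays in the values. Values deposited with factor 1, in 2 libraries, are raw counts. Elsewhere 100% of values came out as whole multiples of 1 read (tolerance 0.001), so counts were recovered. No input was subtracted. There were 0 value columns not mapped to a sample. The member intervals held 3860 to 9471 reads per library.

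Values were summed per gene symbol, with the nearest gene as the authors' annotation gave it. Genes and intervals with a mean of at least 10 were tested by limma (3.58.1, R 4.3.3, intensity trend) on log2(value + 1), with 6 treatment means over 12 libraries, so folds of low features are understated. p-values were adjusted by Benjamini-Hochberg within each comparison over all features. A departure is a difference minus the median over all tested features. edgeR (4.0.16) quasi-likelihood on the recovered counts, median-of-ratios scaling, factors applied to each library's share of reads, a pseudocount of 5, other filters, no trend, only the libraries of a comparison, a set block and leaving out each library were alternatives. The scripts were tested on simulated data. Sequences were read from RefSeq GRCm38, whose chromosomes are those of mm10, and gene starts are those of the principal coding transcripts in the GENCODE annotation (vM21) of the same build. Coordinates count from 1.

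The 9 members and both pathway lists were chosen with earlier results of these data known. Named genes were all 9 members, their start or highest intervals, any interval with a mean of at least 50 that departed in 1 direction in every same-set pair (none did), and the list genes that departed most in 1 direction. Same-numbered libraries were checked for pairing by the correlation of their deviations over 15 pairs of treatments. It was -0.225 to 0.601, and 4 exceeded 0.1, so the numbers were not taken as pairs. A correlation takes off any shift shared by all genes of a library, so this check cannot show an offset between the sets. A further item of the marker list is not reported here.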

Additional observations from a re-analysis of the deposited data

Results flagged for a closer look

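Hmox1 was the member whose 2 sets both gave a negative difference for etomoxir + SB204990 without acetate and a positive one with it, where the contrast without acetate was not called by limma and the one with acetate was not tested on its own. Etomoxir + SB204990 against vehicle was -0.19 in set 1 and -0.08 in set 2 on the log2 scale, whereas etomoxir + SB204990 + acetate against acetate was 0.13 and 0.28. The difference between the 2 contrasts was 0.34 ± 0.34 (SE), and as the interaction of acetate with etomoxir + SB204990 it did not pass the test (limma adjusted p = 0.999). The first contrast turned positive on median-of-ratios scaling (0.051) and ran from -0.47 to 0.21 as single libraries were left out. The interaction was positive in all 9 genes, and larger in Gclm (0.43) and Txnrd1 (0.38).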

How the results depend on the processing

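Of the single-gene and single-interval values, a pseudocount of 5 and a minimum mean of 50 changed the direction of none, and a minimum mean of 50 moved 2 interval values past the threshold. edgeR on the recovered counts lost 1 gene call and no interval call. Median-of-ratios scaling takes off the shift shared by most genes by construction, and the number of members called under it was 0 for etomoxir + acetate vs etomoxir, 0 for etomoxir + SB204990 + acetate vs etomoxir + SB204990, 0 for the average acetate effect and 0 for adding SB204990, with 0 intervals for acetate and 0 for adding SB204990. With the factors applied to each library's share of reads the count was also 0 in each of these 6. Fitted on only the libraries of the comparison, 7 members were called for acetate vs vehicle, 9 for etomoxir on average (13 intervals), 0 for adding SB204990 (0 intervals) and 0 for etomoxir + SB204990 + acetate vs etomoxir + SB204990. Without the intensity trend 0 members and 0 intervals were called on adding SB204990, and with no filter 0 intervals and 1 gene fewer (Nqo1). Leaving out 1 library at a time gave 4 to 8 calls of 9 for etomoxir + acetate vs etomoxir, 0 to 9 for etomoxir + SB204990 + acetate vs etomoxir + SB204990, 0 to 9 members and 0 to 16 intervals for adding SB204990, and 15 to 20 intervals for acetate. In these fits the lone library of a treatment is assumed to vary like the other treatments. Apart from median-of-ratios scaling and the fits of fewer libraries, the cause was not tested. With the set as a replicate block, 1 member was called for acetate vs vehicle (Nfe2l2), 2 gene values and 1 interval value passed the threshold that had not, and no call was lost.

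Directions turned as follows, and no value was called after it turned. Median-of-ratios scaling gave, for acetate vs vehicle, Keap1 -0.0097, Hmox1 -0.081, Gclc -0.064, Gclm -0.14, Txnrd1 -0.038, Slc7a11 -0.058 and Srxn1 -0.17. For etomoxir vs vehicle it gave Hmox1 -0.037 and Txnrd1 -0.016, and for etomoxir + SB204990 vs vehicle Nfe2l2 0.052, Hmox1 0.051, Gclc 0.13, Slc7a11 0.072 and Srxn1 0.045. For etomoxir + acetate vs etomoxir it gave Nfe2l2 -0.058, Keap1 -0.16, Gclc -0.20, Gclm -0.23, Txnrd1 -0.060, Slc7a11 -0.10 and Srxn1 -0.086, and for etomoxir + SB204990 + acetate vs etomoxir + SB204990 Nqo1 -0.0089, Gclc -0.096 and Slc7a11 -0.033. The average acetate effect became Keap1 -0.055, Gclc -0.12, Gclm -0.079, Slc7a11 -0.065 and Srxn1 -0.083, and that of etomoxir Keap1 -0.015 and Txnrd1 -0.027. Adding SB204990 became Hmox1 0.049, Nqo1 0.014, Gclc 0.041, Txnrd1 0.076, Slc7a11 0.014 and Srxn1 0.081.

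In the start intervals the same scaling gave, for acetate, Keap1 -0.072, Nqo1 -0.031, Gclc -0.15, Gclm -0.10, Slc7a11 -0.077 and Srxn1 -0.15. For etomoxir they were Keap1 -0.061, Gclc -0.082, Gclm -0.020, Txnrd1 -0.073 and Srxn1 -0.0088. On adding SB204990 they were Nfe2l2 0.0090, Hmox1 0.025, Nqo1 0.065, Gclc 0.14, Txnrd1 0.086, Slc7a11 0.052 and Srxn1 0.12. Factors applied to the share of reads gave Keap1 -0.020, Hmox1 -0.12, Txnrd1 -0.095 and Srxn1 -0.069 for etomoxir vs vehicle. It gave Nfe2l2 0.15, Keap1 0.046, Hmox1 0.14, Gclc 0.23, Txnrd1 0.029, Slc7a11 0.16 and Srxn1 0.14 for etomoxir + SB204990 vs vehicle, and 0.0038 for the Gclc start interval on adding SB204990. Leaving out 1 library gave Hmox1 -0.18 to 0.39 for etomoxir vs vehicle. For etomoxir + SB204990 vs vehicle it gave Hmox1 -0.47 to 0.21, Nqo1 -0.26 to 0.29 and Gclc -0.20 to 0.10.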
